A study of Mus musculus with 12 samples.

Results

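Mammary tumours carrying the d16 form of HER2 were compared with tumours carrying the p95 form, in mice that had never been pregnant. The 8 nulliparous tumours of the 12 tumours in the series were used, chosen by their genotype label: 3 were labelled d16 HER2 and 5 p95 HER2. The other 4 came from multiparous animals whose form of HER2 was labelled unknown, and they entered no comparison. All 8 arose in untreated mMTV-Cre/HER2 Crainbow mice of the FVBN strain, so both groups carried the same Cre and the same multicolour HER2 construct. Cre driven by the mammary tumour virus promoter acts mainly in mammary epithelium. No group without a HER2 transgene was analysed here.

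Growth pattern and genotype were not balanced. 1 of the 3 d16 tumours, d16 tumour 1, was solid nodular by its label and was taken at 21 weeks. The others, d16 tumour 2 at 17 weeks and d16 tumour 3 at 16 weeks, were labelled metaplastic/invasive. All 5 p95 tumours were metaplastic/invasive, at 20, 17, 15, 16 and 17 weeks for p95 tumours 1 to 5. The labelled age of d16 tumour 1 lies outside the harvest range of 15 to 20 weeks given in the protocol. The number in the title was shared by d16 tumour 2 and p95 tumour 2, and likewise by d16 tumour 3 and p95 tumour 4. The labels do not say whether that number marks an animal, nor whether any tumours came from separate animals, so p values measure the spread between these samples.

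HER2, the product of ERBB2, is a receptor tyrosine kinase that pairs with the other ERBB receptors and feeds the ERK and PI3K-AKT cascades. The d16 form is a splice variant that lacks an exon coding for extracellular sequence close to the membrane, and it forms disulfide-linked dimers that signal without a ligand. The p95 form lacks most of the extracellular domain and keeps the transmembrane and kinase parts. Metaplastic mammary carcinoma is a growth pattern in which part of the tumour epithelium takes on squamous, spindle-like or matrix-producing features. No row of the deposited tables named human ERBB2 or a fluorescent reporter, so the transgene itself was not measured and the genotype labels could not be checked from it.

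Single cells had been captured in droplets on a ddSEQ instrument and read as 3′ ends of transcripts tagged with unique molecular identifiers (UMIs). Cells with at least 200 detected genes numbered 5024 of 6075 barcodes. Depth was uneven. D16 tumour 1 and p95 tumour 1 were shallow, with 222220 and 104893 UMIs in all and medians of 449 and 452 UMIs per cell. The 6 other tumours held 1072750 to 4394398 UMIs, with medians of 1111 to 3810 per cell. The solid nodular d16 tumour was thus also a shallow one, and growth pattern and depth cannot be told apart for it. Gene names were intact in the tables of d16 tumours 1 and 2 and p95 tumours 1 and 2 and had partly turned into dates in the other 4.

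Cells were sorted into classes by clustering and marker genes. Luminal markers of mammary epithelium summed to 6791 to 31300 CPM per tumour. Epithelial-like cells were the largest class in each tumour. They made up 86.8, 71.6 and 31% of kept cells in d16 tumours 1 to 3 and 66.7, 44.8, 50.2, 37.9 and 32.3% in p95 tumours 1 to 5. The d16 tumours held both the highest share and the lowest, so the groups overlapped. The difference of 16.8 percentage points was 4.92 without d16 tumour 1 and 32.8 without d16 tumour 3. Mean shares were 63.1% ± 28.8 (SD, n = 3) and 46.4% ± 13.2 (SD, n = 5), with a two-sided exact permutation p of 0.304 (adjusted p = 0.81 over 8 classes). The smallest p that 3 against 5 tumours can give is 0.0179.

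Neutrophil-like cells made up 0, 2.57 and 0.479% of d16 tumours 1 to 3, and 0.565, 8.75, 14.2, 0.857 and 6.46% of p95 tumours 1 to 5. 3 of the p95 tumours lay above every d16 tumour and p95 tumours 1 and 4 lay among them (exact permutation p = 0.214). The difference of −5.16 percentage points fell to −0.39 among cells with at least 500 detected genes. Fibroblast-like cells made up 0, 1.88 and 2.01% of the d16 tumours and 1.13, 2.12, 5.22, 18.0 and 5.06% of the p95 tumours. 4 p95 tumours lay above all d16 tumours and p95 tumour 1 lay among them (exact permutation p = 0.268). This order does not count clusters 6 and 10, which scored best on fibroblast markers but were left unnamed because markers of another class were among their leading genes. Cluster 6 held 1.10, 4.05 and 13.8% of d16 tumours and 2.83, 7.29, 5.54, 2.78 and 8.38% of p95 tumours, and cluster 10 held 0.276, 0.0987 and 10.5% against 2.26, 0.265, 7.91, 8.99 and 10.8%. Fibroblast markers summed over the whole tumour stood at 419, 3374 and 16610 CPM in d16 tumours and 2536, 6201, 20600, 24770 and 18320 CPM in p95 tumours, so that d16 tumour 3 lay above p95 tumours 1 and 2 by this measure. Macrophage-like cells took 9.09, 12.1 and 23.2% of d16 tumours and 15.8, 16.8, 6.80, 18.6 and 19.6% of p95 tumours, and T or NK-like cells 1.93, 5.33 and 12.3% against 9.61, 16.7, 4.91, 1.93 and 6.63%. For both of these classes the groups overlapped widely, with exact permutation p of 0.857 and 0.732. No class passed after adjustment over the 8 classes. The 0 neutrophil-like and 0 fibroblast-like cells among the 363 kept cells of d16 tumour 1 allow a share of up to 0.826% each, for counting error only.

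**Figure D1:**
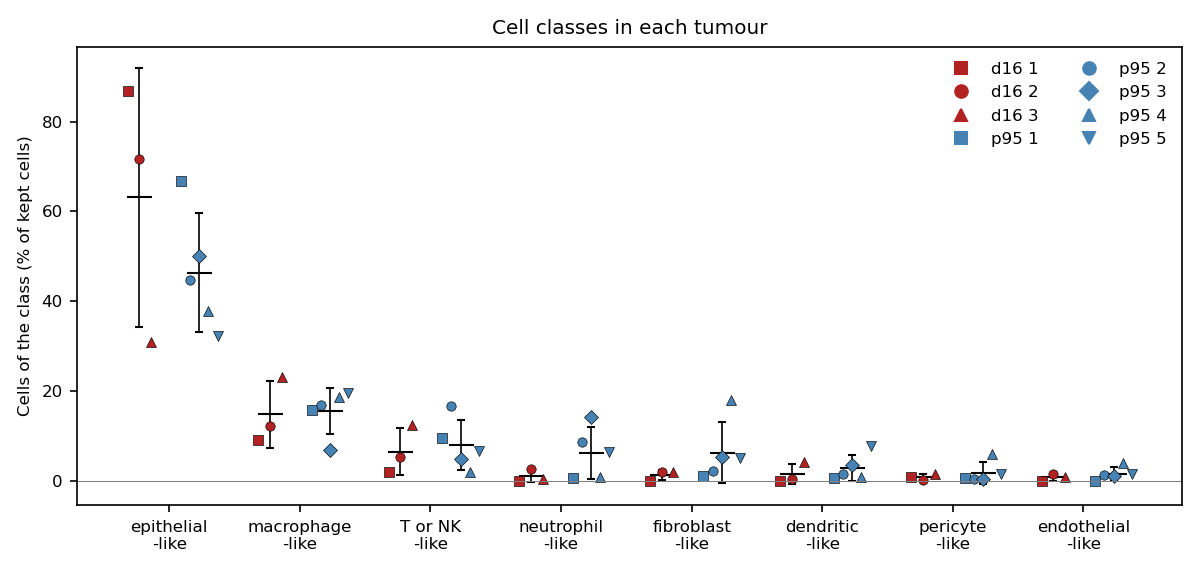
Share of kept cells in each of 8 cell classes (vertical axis, %) for the 3 d16 tumours (red) and 5 p95 tumours (blue), 1 symbol per tumour, with mean and SD as black bars. Epithelial-like shares span 31 to 86.8% in d16 tumours, a range that includes every p95 tumour, and the highest neutrophil-like and fibroblast-like shares are in p95 tumours 3 (14.2%) and 4 (18.0%).

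UMIs were then summed over all kept cells of a tumour. In such sums, fewer cells of a type and less RNA per cell cannot be told apart. Levels are given as CPM (UMIs per 1000000 UMIs of the tumour, after TMM normalisation), and differences as the log2 fold change of d16 over p95 with its standard error. None of 11061 genes passed an adjusted p of 0.05 in edgeR's quasi-likelihood test, and 483 (4.37%) had an unadjusted p under 0.05. Of all tested genes, 307 (2.78%) had such a p and were higher in d16 tumours, and 176 (1.59%) were lower, while 51.9% had a fold change below 0. DESeq2 called 3 genes at the same threshold, Gpx2, Mfsd7c and Mtmr14, and limma voom called none. The number with an unadjusted p under 0.05 ranged from 218 without d16 tumour 2, over 228 without d16 tumour 1 and 254 without p95 tumour 5, to 2002 without d16 tumour 3. With table layout (intact or date-like gene names) as a covariate in edgeR, 116 genes were higher in d16 and 198 lower at that p. The direction with more such genes thus changed with this setting. For 214 genes (1.93%) the levels of the 3 d16 tumours did not overlap those of the 5 p95 tumours, 133 (1.2%) higher and 81 (0.732%) lower.

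Mtmr14, which codes for a phosphatase of membrane phosphoinositides, had the smallest p of the whole-tumour fit. Its levels were 213, 123 and 90.5 CPM in d16 tumours 1 to 3, against 50.7, 38.8, 36.0, 28.4 and 28.4 CPM in p95 tumours 1 to 5. Every d16 tumour lay above every p95 tumour. The log2 fold change was 2.01 ± 0.32 (edgeR adjusted p = 0.90), and DESeq2 gave an adjusted p of 0.0040. Among metaplastic tumours alone, that is without d16 tumour 1, it was 1.64.

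Gpx2, a glutathione peroxidase of epithelial linings, stood at 306, 381 and 12.4 CPM in d16 tumours and at 0, 15.3, 7.42, 12.2 and 1.33 CPM in p95 tumours. D16 tumours 1 and 2 were far above all others, while d16 tumour 3 lay below p95 tumour 2. Its log2 fold change of 4.80 ± 0.96 therefore came from 2 of 3 tumours. A similar order was seen for Pglyrp1, a secreted protein that binds bacterial peptidoglycan, at 101, 184 and 20.4 CPM in d16 tumours and 42.3, 15.3, 6.36, 11.7 and 3.55 CPM in p95 tumours (log2 fold change 3.27 ± 0.75). Ceacam10, a member of the carcinoembryonic antigen family, stood at 674, 165 and 35.4 CPM against 67.6, 22.5, 4.24, 22.1 and 1.33 CPM (4.16 ± 1.08). For both, d16 tumour 3 fell within the p95 range. St6galnac2, which adds sialic acid to mucin-type sugar chains, separated the groups by a narrow margin, at 58.1, 42.7 and 10.3 CPM in d16 tumours and 8.45, 9.19, 7.95, 8.58 and 4.44 CPM in p95 tumours (2.18 ± 0.55).

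Among the genes lower in d16 tumours with the smallest p, Sema3c, a secreted guidance factor of the semaphorin family, stood at 7.75, 10.9 and 8.91 CPM in d16 tumours and 16.9, 32.7, 60.4, 40.6 and 20.9 CPM in p95 tumours. Each d16 tumour was below each p95 tumour, and the log2 fold change was −1.94 ± 0.45 (edgeR adjusted p = 0.90). In the shallow d16 tumour 1 and p95 tumour 1 these levels rest on very few UMIs. Ptx3, a secreted pattern-recognition protein of the pentraxin family, stood at 19.4, 70.2 and 74.8 CPM in d16 tumours and 93.0, 258, 745, 731 and 182 CPM in p95 tumours (−2.82 ± 0.74, no overlap). The spread inside the p95 group was wide for Ptx3, with the highest levels in p95 tumours 3 and 4.

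Clec4d, a lectin receptor of myeloid cells, was at 7.75, 58.3 and 42.0 CPM in d16 tumours and 93.0, 229, 195, 84.9 and 173 CPM in p95 tumours (−1.99 ± 0.52, no overlap). Ly6c1, a surface antigen found on monocytes and endothelium, was at 3.88, 64.0 and 47.8 CPM against 101, 149, 255, 267 and 100 CPM (−2.06 ± 0.59, no overlap). Figf, the gene of the lymphatic growth factor VEGF-D, was at 7.75, 2.60 and 3.75 CPM against 8.45, 12.3, 34.5, 45.6 and 10.2 CPM (−2.72 ± 0.70). Figf did not overlap either, although d16 tumour 1 lay just below p95 tumour 1. In these shallow tumours such levels rest on very few UMIs, so their order is not firm. Summed markers of neutrophils, among which Clec4d was counted, were lower in d16 for 9 of 9 tested genes (median log2 fold change −1.48), and summed markers of fibroblasts for 12 of 12 (median −1.18). The fibroblast median was −0.68 without d16 tumour 1 and −2.26 without d16 tumour 3. The part of these cells in the differences of single genes was not tested.

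Within epithelial-like cells, the same test was run on UMIs summed over the 118 to 725 such cells of each tumour. None of 9330 genes passed an adjusted p of 0.05 in edgeR, and 510 (5.47%) had an unadjusted p under 0.05, 294 (3.15%) higher and 216 (2.32%) lower in d16. With table layout as a covariate the balance turned here too, with 125 higher and 225 lower. DESeq2 called Gpx2 and Mtmr14. The count at an unadjusted p under 0.05 was 199, 264, 273 and 310 without d16 tumour 2, p95 tumour 5, d16 tumour 1 and p95 tumour 3, and 1558 without d16 tumour 3. For 232 genes (2.49%) the groups did not overlap, 146 (1.56%) higher and 86 (0.922%) lower, and 49.9% of all genes had a fold change below 0. The class was not uniform. Cluster 4, led by Rn45s, Chadl, Pglyrp1, Comp and Gpx2, held 67.3, 47.3 and 4.63% of epithelial-like cells in d16 tumours and 36.4, 4.14, 0.946, 1.70 and 4.32% in p95 tumours. Clusters 17 and 18, led by Krt6b and Krtdap and by Krt5 and Col17a1, held 16.1 and 34.4% in p95 tumour 3, and cluster 18 held 29.2% in p95 tumour 5 and 7.72% or less in the other tumours. Cluster 7, led by Wnt5b and Spp1, held 17.5, 15.9 and 31.5% in d16 tumours and 35.6, 53.6, 10.4, 56.5 and 14.1% in p95 tumours. Levels of the genes that lead a cluster are to be read beside this makeup.

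Mtmr14 had the smallest p here too, at 249, 145 and 174 CPM in d16 tumours and 68.3, 40.0, 28.4, 38.6 and 25.4 CPM in p95 tumours. The groups were well apart, and the log2 fold change was 2.39 ± 0.33. Its adjusted p was 0.16 in edgeR and 0.000106 in DESeq2, and the fold ranged from 2.03 to 2.58 over all alternative settings. The metaplastic tumours alone gave 2.15. Brpf1, a scaffold protein of histone acetyltransferase complexes, stood at 467, 91.1 and 315 CPM in d16 tumours and 109, 61.9, 56.8, 58.0 and 68.2 CPM in p95 tumours. Only p95 tumour 1 exceeded a d16 tumour, tumour 2, and the log2 fold change was 2.11 ± 0.45 (edgeR adjusted p = 0.83).

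Gstm1, a glutathione S-transferase that joins glutathione to reactive compounds, stood at 132, 201 and 45.4 CPM in d16 tumours and 0, 42.0, 24.9, 38.6 and 31.5 CPM in p95 tumours, with no overlap (log2 fold change 1.99 ± 0.50). Gstm2 stood at 49.9, 19.9 and 10.2 CPM against 13.7, 5.99, 3.44, 1.02 and 4.07 CPM (2.62 ± 0.71), and only p95 tumour 1 exceeded a d16 tumour. Gsta3 stood at 68.0, 35.6 and 3.97 CPM against 27.3, 4.00, 0, 3.05 and 0 CPM (3.86 ± 1.19), with d16 tumour 3 inside the p95 range. For Gstm2 and Gsta3 the levels of the shallow p95 tumour 1 rest on very few UMIs. The whole list of glutathione and oxidative defence did not lean one way: 12 of 23 tested genes were higher and 11 lower, with 4 and 1 at an unadjusted p under 0.05 (background 5.47%). Without d16 tumour 3 there were 11 higher and 12 lower, 9 of the 23 at such a p. In that fit 1558 of all 9941 genes had such a p. Gstm1 and Gstm2 are close copies of each other, so reads could be split between them.

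Other genes with small p in epithelium were of mixed function. Ldhb, a lactate dehydrogenase subunit, stood at 612, 498 and 142 CPM in d16 tumours and 232, 91.9, 55.0, 101 and 66.1 CPM in p95 tumours (2.07 ± 0.53). Gjb1, a gap junction protein, stood at 54.4, 55.5 and 7.95 CPM against 13.7, 5.99, 1.72, 5.08 and 4.07 CPM (3.11 ± 0.71). In each, p95 tumour 1 was the one p95 tumour above d16 tumour 3. Its epithelial-like cells held only 64781 UMIs, so its 13.7 CPM of Gjb1 rests on very few UMIs. Tspan12, a membrane protein of the tetraspanin family, stood at 168, 59.1 and 38.0 CPM against 13.7, 16.0, 13.8, 36.6 and 7.12 CPM, without overlap though p95 tumour 4 came close to d16 tumour 3 (2.17 ± 0.59). Dbp, a circadian transcription factor, stood at 231, 43.4 and 10.2 CPM against 41.0, 7.99, 2.58, 2.03 and 7.12 CPM (3.85 ± 1.02). For Dbp the level of d16 tumour 1 was 231 CPM against 43.4 CPM in the next, and without that tumour the log2 fold change was 2.12.

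**Figure D2:**
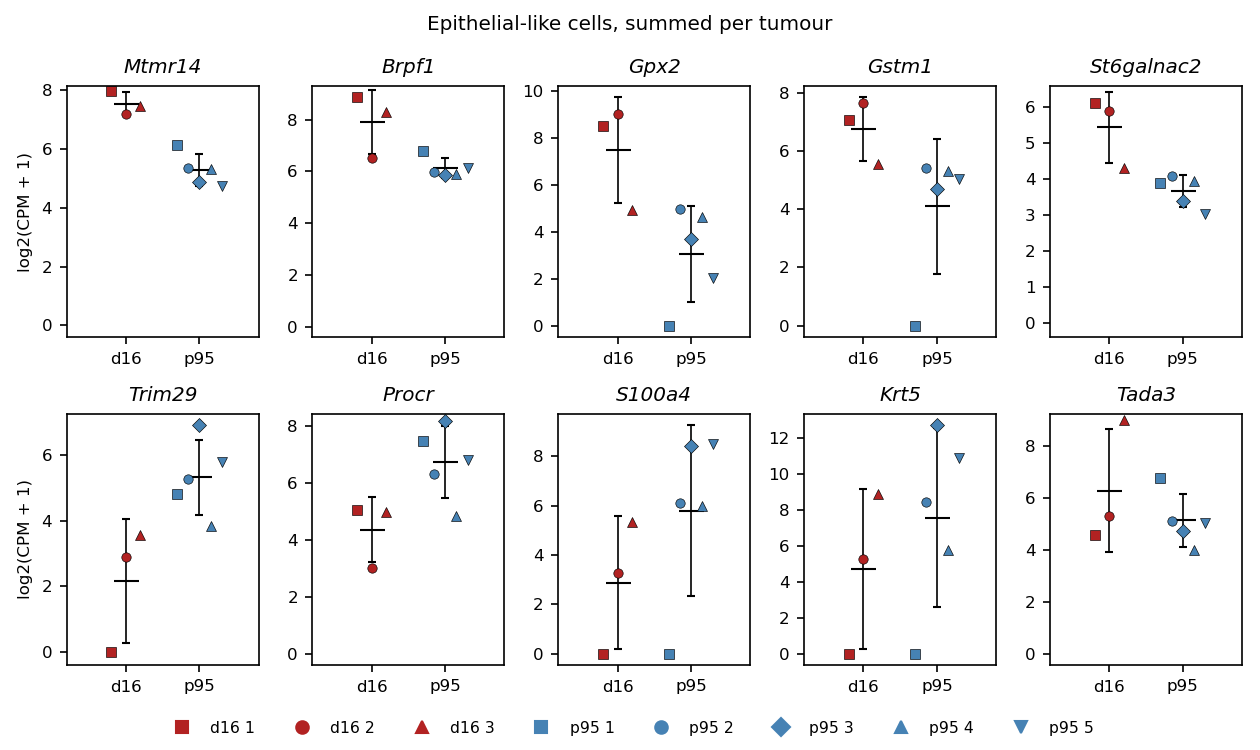
Levels of 10 genes in epithelial-like cells summed per tumour, as log2(CPM + 1) on the vertical axis, with 1 symbol per tumour and group mean and SD as black bars. Mtmr14, Gstm1, St6galnac2 and Trim29 separate the 3 d16 from the 5 p95 tumours, while for Tada3 a single d16 tumour (tumour 3, 503 CPM) sets the d16 mean.

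Among genes lower in d16 epithelium, Trim29, a protein of stratified epithelium, stood at 0, 6.41 and 10.8 CPM in d16 tumours and 27.3, 38.0, 120, 13.2 and 53.9 CPM in p95 tumours. The groups did not overlap (log2 fold change −2.85 ± 0.76, edgeR adjusted p = 0.83). Procr, the endothelial protein C receptor, also used to mark a stem-like mammary population, stood at 31.7, 7.12 and 30.7 CPM against 178, 77.9, 286, 27.5 and 110 CPM (−2.62 ± 0.77). 4 p95 tumours lay above all d16 tumours, and p95 tumour 4 lay inside the d16 range. Klk7, a protease of the outer skin layer, stood at 0, 5.69 and 0.568 CPM against 0, 50, 265, 1.02 and 116 CPM (−5.17 ± 1.51), and Fgfbp1, a carrier of fibroblast growth factors, at 0, 0.712 and 4.54 CPM against 0, 24.0, 126, 3.05 and 47.8 CPM (−4.22 ± 1.23). Both were high in p95 tumours 2, 3 and 5 and near 0 in p95 tumours 1 and 4. Nfatc1, a calcium-regulated transcription factor, stood at 4.53, 14.2 and 34.6 CPM against 41.0, 53.9, 39.6, 71.2 and 153 CPM, without overlap (−1.86 ± 0.58). For Trim29 and Nfatc1 the level of the shallow p95 tumour 1 rests on very few UMIs, so its place is not firm.

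Squamous and keratinising genes were lower in d16 epithelium for 15 of 16 tested members (median log2 fold change −2.14, against 0.00 over all genes). Of these, 6 had an unadjusted p under 0.05, against 2.32% of all genes in that direction. Single tumours moved that number: it was 2 without d16 tumour 1, 1 without d16 tumour 2 and 1 without p95 tumour 3 (median −1.20), and 10 without d16 tumour 3 (median −3.24). Over all genes, 141 of 9715, 65 of 9807, 115 of 9075 and 869 of 9941 were lower at such a p in these fits. Krt6b, a keratin of stressed and keratinising epithelium, stood at 0, 0 and 6.81 CPM in d16 tumours and 0, 12.0, 779, 0 and 42.7 CPM in p95 tumours (−5.79 ± 2.13). Krt16, which pairs with the Krt6 keratins, stood at 0, 12.1 and 143 CPM against 27.3, 416, 2611, 21.4 and 624 CPM (−3.74 ± 1.57), and Sbsn, a secreted protein of the suprabasal layers, at 9.07, 36.3 and 36.3 CPM against 0, 57.9, 452, 73.2 and 104 CPM (−2.30 ± 0.89). The keratins were highest in p95 tumour 3, followed by p95 tumours 5 and 2, while p95 tumours 1 and 4 lay among the d16 tumours. Krt5, a keratin of the basal layer, stood at 0, 37.7 and 462 CPM against 0, 346, 6707, 53.9 and 1904 CPM (−3.40 ± 1.84), and d16 tumour 3 exceeded p95 tumours 1, 2 and 4. Of 15 tested basal and myoepithelial genes 14 were lower in d16 epithelium (median −1.51). Without the solid nodular d16 tumour 15 of 16 squamous genes (median −1.76) and 12 of 15 basal genes (median −1.31) were still lower. The basal median was −3.02 without d16 tumour 3 and −0.996 without p95 tumour 3.

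Genes tied to epithelial-mesenchymal transition, the shift of epithelial cells towards a motile, matrix-producing state, were lower in d16 epithelium for 19 of 19 tested members (median −1.12), 4 of them at an unadjusted p under 0.05 (background for that direction 2.32%). Leaving out d16 tumour 1 kept 19 of 19 lower, with a median of −0.88. Without d16 tumour 2 only 1 had such a p, and without d16 tumour 3 there were 14 of 18, with a median of −2.85. Over all genes, 65 of 9807 and 869 of 9941 were lower at such a p in these fits. S100a4, a calcium-binding protein of motile cells, stood at 0, 8.54 and 39.7 CPM in d16 tumours and 0, 67.9, 347, 62.0 and 360 CPM in p95 tumours (−3.19 ± 1.05). Itga5, the fibronectin receptor subunit, stood at 0, 5.69 and 14.8 CPM against 0, 28.0, 91.2, 22.4 and 69.2 CPM (−2.45 ± 0.77). For both, p95 tumours 2 to 5 lay above every d16 tumour, and the shallow p95 tumour 1 had none. Vim, the intermediate filament of mesenchymal cells, stood at 245, 356 and 1515 CPM against 505, 697, 1928, 1271 and 3286 CPM, with d16 tumour 3 well inside the p95 range (−1.12 ± 0.72). Of 16 collagen genes 13 were lower (median −1.16), and of 17 matrix proteases and their inhibitors 16 were lower (median −1.30), each with 5 at an unadjusted p under 0.05, beside the same 2.32% of all genes. Without d16 tumour 2 each list had 1 such gene. Without d16 tumour 1 the collagens had 3 and the proteases 2, and without p95 tumour 5 the numbers were also 3 and 2 (collagen median −0.72). The proteases had 3 without p95 tumour 2 or 3. Without d16 tumour 3 there were 9 collagens (median −2.67) and 13 proteases (median −2.48), again beside 869 of 9941 genes lower at such a p over all genes. Fibroblast markers were present in the same epithelial sums at 99.8, 419 and 678 CPM in d16 tumours and 492, 518, 527, 331 and 1048 CPM in p95 tumours. These sums are over 12 genes, of which 6 passed the filter for the fit. The part of these markers in the differences was not tested.

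Of 11 tested receptor and ligand genes of the ERBB family 10 were lower in d16 epithelium, with a median of −0.41, and 1 had an unadjusted p under 0.05. Without d16 tumour 3 there were 5 at such a p and the median was −0.75, and without d16 tumour 2 there was none (0) and it was −0.25. Over all genes, 1558 of 9941 and 199 of 9807 had such a p in these fits. The mouse gene Erbb2 stood at 49.9, 107 and 57.9 CPM in d16 tumours and 150, 126, 47.3, 50.8 and 79.4 CPM in p95 tumours. Whether reads of the transgene were counted under it is not given in the sources used here. The groups overlapped (log2 fold change −0.19 ± 0.43), and the sign changed in 4 alternative settings. Egfr, the receptor of the EGF-like ligands, stood at 40.8, 43.4 and 48.8 CPM against 27.3, 50, 44.7, 93.5 and 43.7 CPM (−0.30 ± 0.36). Its ligand Ereg stood at 0, 11.4 and 125 CPM against 27.3, 75.9, 208, 387 and 317 CPM (−2.07 ± 0.98), and Hbegf at 240, 381 and 789 CPM against 300, 985, 796, 1622 and 918 CPM (−0.98 ± 0.53). For both ligands p95 tumours 3, 4 and 5 exceeded all d16 tumours, and p95 tumour 1 fell among them. P95 tumour 2 exceeded them for Hbegf. Areg, the amphiregulin ligand, varied more inside the groups than between them, from 22.7 to 1421 CPM in d16 tumours and from 287 to 1139 CPM in p95 tumours (−0.44 ± 0.87).

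Output genes of the ERK cascade, which lies below HER2, did not lean one way, with 7 of 17 higher and 10 lower in d16 epithelium. The ETS factor Etv1 stood at 154, 71.2 and 26.1 CPM in d16 tumours and 41.0, 30, 11.2, 22.4 and 10.2 CPM in p95 tumours (2.02 ± 0.59). D16 tumours 1 and 2 were above all p95 tumours and d16 tumour 3 among them. Dusp6, the feedback phosphatase of ERK, stood at 458, 268 and 412 CPM against 410, 292, 212, 353 and 156 CPM (0.44 ± 0.36). Ccnd1, the G1 cyclin, stood at 132, 273 and 476 CPM against 164, 342, 971, 273 and 745 CPM (−0.77 ± 0.59). Neither separated the groups. Of 13 FOXO targets, which AKT signalling restrains, 7 were higher and 6 lower, and Pik3ip1, an inhibitor of PI3K, stood at 81.6, 24.9 and 7.95 CPM against 13.7, 14.0, 4.30, 4.07 and 6.10 CPM (2.22 ± 0.76).

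Mtmr14 and Brpf1 are neighbours on mouse chromosome 6. In GRCm38 with GENCODE M21, Mtmr14 spans chr6:113237843-113281392 and Brpf1 chr6:113307137-113324860, both on the plus strand. They lie 160.5 and 229.8 kb from Gt(ROSA)26Sor, the Rosa26 locus, a site often used to insert transgenes. Where the HER2 Crainbow allele was inserted is not stated in the labels. Both are among the genes higher in d16 epithelium at an unadjusted p under 0.05, although neither passed after adjustment in edgeR. The 300 bases around each annotated start are shown, from RefSeq (GRCm38.p6, plus strand, 250 bases before the start to 50 after), with matches to the searched motifs in capitals.
Mtmr14: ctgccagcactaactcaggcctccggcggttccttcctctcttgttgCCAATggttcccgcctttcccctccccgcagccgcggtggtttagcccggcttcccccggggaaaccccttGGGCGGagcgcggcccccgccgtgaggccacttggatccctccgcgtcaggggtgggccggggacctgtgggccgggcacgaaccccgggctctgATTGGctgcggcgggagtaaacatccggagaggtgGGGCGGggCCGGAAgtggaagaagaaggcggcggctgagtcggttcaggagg
Brpf1: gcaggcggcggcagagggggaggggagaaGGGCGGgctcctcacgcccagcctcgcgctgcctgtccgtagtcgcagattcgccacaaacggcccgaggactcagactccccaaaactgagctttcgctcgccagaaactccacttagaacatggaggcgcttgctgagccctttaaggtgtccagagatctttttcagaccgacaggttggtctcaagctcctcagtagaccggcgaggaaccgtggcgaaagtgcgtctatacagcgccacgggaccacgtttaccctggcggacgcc
These windows are chr6:113237593-113237892 and chr6:113306887-113307186. The motifs searched on both strands were the GC box (GGGCGG), the CCAAT box (CCAAT), an ETS core (CCGGAA) and a TATA box (TATAAA). The Mtmr14 window held 2 GC boxes, 2 CCAAT boxes and 1 ETS core, and the Brpf1 window held 1 GC box and none of the others. Of 32841 RefSeq promoters of that length 35.7% held a GC box, 37.4% a CCAAT box, 14.9% the ETS core and 13.6% the TATA box. GC content was 69.7% for Mtmr14 and 61.7% for Brpf1, against a median of 52.7% over all promoters.

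A list of 18 genes beside the Rosa26 locus, drawn up with earlier results of these data known, had 14 tested members in whole tumours. Of these, 9 were higher in d16 tumours and 5 lower, with a median log2 fold change of 0.91, and 6 had an unadjusted p under 0.05, all higher (background for that direction 2.78%). Brpf1 stood at 415, 83.8 and 163 CPM in d16 tumours and 67.6, 58.2, 56.2, 49.2 and 63.1 CPM in p95 tumours, with no overlap (1.88 ± 0.43). Ogg1, a DNA glycosylase for oxidised guanine, stood at 15.5, 5.20 and 12.2 CPM against 0, 3.06, 2.12, 3.16 and 2.67 CPM (1.93 ± 0.53, no overlap). It is 249.6 kb from the locus and overlaps Camk1 on the other strand, and whether counting used strand is not given in the sources used here. Tada3, an adaptor of acetyltransferase complexes, 288.7 kb from the locus, stood at 27.1, 33.3 and 220 CPM against 67.6, 22.5, 21.7, 14.9 and 22.7 CPM (2.05 ± 0.66). D16 tumours 1 and 2 lay inside the p95 range for Tada3, and in epithelial-like cells its log2 fold change of 2.57 ± 0.88 became −0.0037 without d16 tumour 3.

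Within metaplastic tumours alone 9 of the 14 genes were again higher, with a median of 0.47. In the pairs with a shared title number, 13 of 14 were higher in d16 tumour 2 than in p95 tumour 2, and 11 of 14 in d16 tumour 3 than in p95 tumour 4. Of all tested genes, 49.9 and 50.8% were higher in the d16 tumour of these pairs. In macrophage-like cells, which do not stem from the mammary epithelium, Mtmr14 stood at 0, 124 and 65.4 CPM in d16 tumours and 48.2, 89.4, 99.9, 61.4 and 45.0 CPM in p95 tumours (0.30 ± 0.47), and Brpf1 at 102, 103 and 49.6 CPM against 0, 44.7, 114, 57.8 and 57.9 CPM (0.31 ± 0.48). Both genes overlapped between groups there. Of the whole list, 5 of 6 tested members were higher in d16 macrophage-like cells (median 0.30), and 8 of 12 in d16 epithelial-like cells (median 0.74). In macrophage-like cells it was 3 of 6 without d16 tumour 2 (median 0.12) and 6 of 6 without d16 tumour 3 (median 0.59). Whether the fold differs between epithelial-like and macrophage-like cells was not tested. The macrophage values were looked up after the epithelial ones had been seen.

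Interferon response genes, which cells switch on after interferon or viral sensing, were higher in d16 whole tumours for 26 of 29 tested genes (median log2 fold change 0.57, all genes −0.02). Of the 29, 3 had an unadjusted p under 0.05, against 2.78% of all genes in that direction. Ifit3 stood at 7.75, 19.3 and 13.6 CPM in d16 tumours and 0, 6.13, 4.77, 0.451 and 0.444 CPM in p95 tumours, with no overlap (2.54 ± 0.78). Mx2, an Mx family gene annotated as a polymorphic pseudogene, had a log2 fold change of 1.84 ± 0.61. Irf9, a subunit of the interferon-activated transcription factor, had one of 0.75 ± 0.32. The summed level of the list stood at 605, 1616 and 967 CPM in d16 tumours and 1260, 1061, 890, 467 and 375 CPM in p95 tumours. D16 tumour 2 was highest, the shallow d16 tumour 1 was lower than p95 tumours 1 to 3, and p95 tumours 4 and 5 were lowest. Without d16 tumour 1, 29 of 29 were higher (median 0.75), without d16 tumour 2 it was 19 of 29 (median 0.29) and without p95 tumour 5 it was 24 of 29 (median 0.37). In epithelial-like cells 23 of 24 were higher (median 0.60). There the numbers were 16 of 24 without d16 tumour 3 (median 0.36), 17 without p95 tumour 5 (0.32) and 18 without p95 tumour 4 (0.41), and p95 tumour 3 left out gave a median of 0.97. Ifit3 has a near copy, Ifit3b, among which reads could be split.

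**Figure D3:**
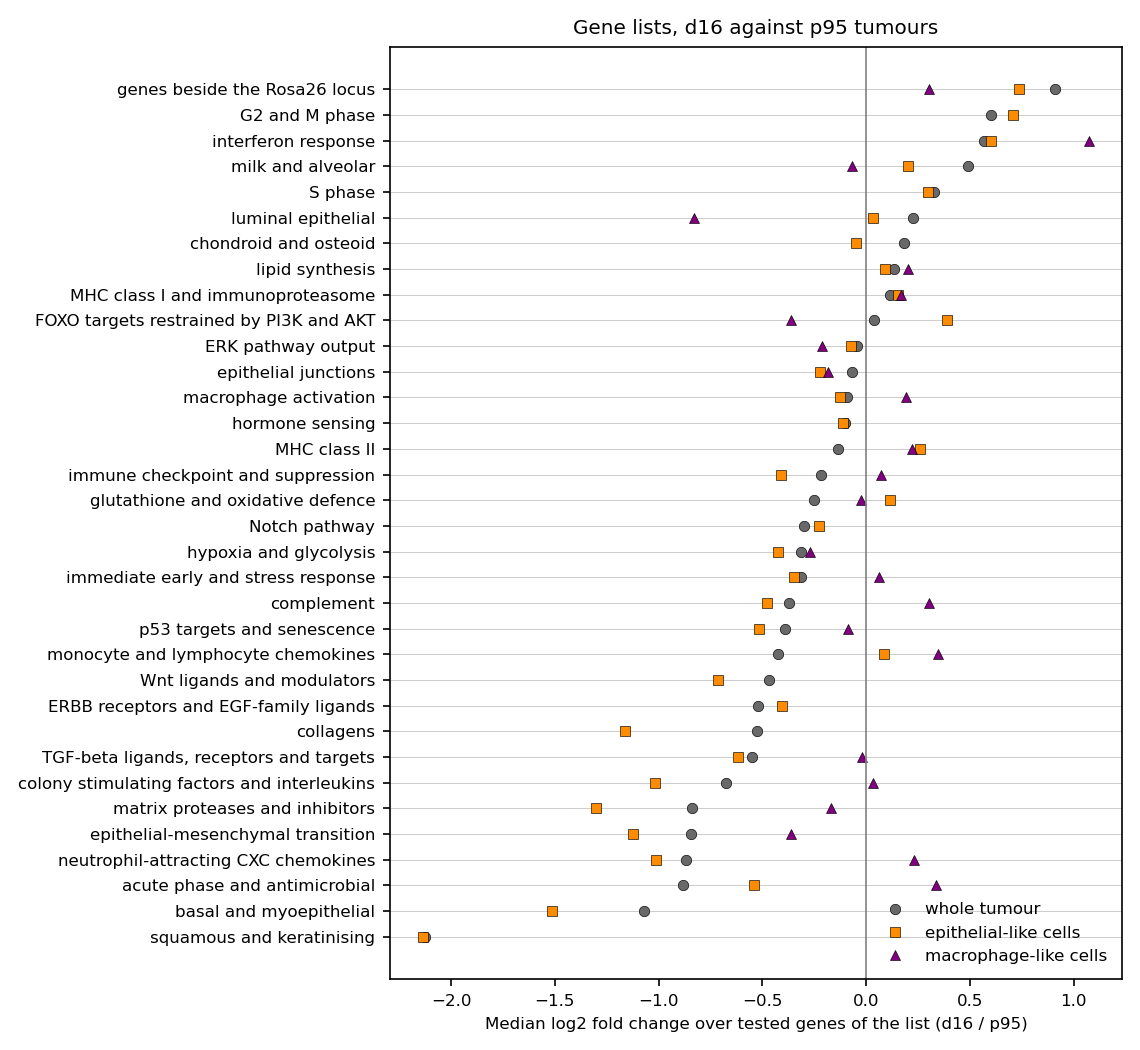
Median log2 fold change of d16 over p95 (horizontal axis) over the tested genes of each list with at least 5 tested genes, in whole tumours (grey circles), epithelial-like cells (orange squares) and macrophage-like cells (purple triangles). Squamous genes lie lowest (−2.13 and −2.14 in whole tumours and epithelial-like cells), and interferon response genes lie above 0 in the 3 sets, at 0.57, 0.60 and 1.07.

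Summed over whole tumours, cytokine and chemokine genes were mostly lower in d16. Colony stimulating factors and interleukins were lower for 19 of 21 tested genes (median −0.68), and their summed level was 2573, 2675 and 4292 CPM in d16 tumours and 4768, 4406, 4533, 4772 and 5159 CPM in p95 tumours. The groups did not overlap, although d16 tumour 3 came close to p95 tumour 2. CXC chemokines and other genes of neutrophil attraction were lower for 10 of 11 (median −0.87), with sums of 5197, 5332 and 6712 CPM against 7727, 7590, 12510, 12260 and 8486 CPM, again without overlap. Cxcl5, a neutrophil attractant, stood at 11.6, 6.76 and 62.9 CPM against 25.4, 60.2, 204, 227 and 104 CPM (−2.11 ± 0.79), and Il6, an inflammatory cytokine, at 34.9, 35.9 and 146 CPM against 101, 98, 221, 340 and 199 CPM (−1.37 ± 0.58). In both, d16 tumours 1 and 2 were below all p95 tumours and d16 tumour 3 among them. Il34, a ligand of the macrophage growth factor receptor, ran the other way, at 19.4, 40.6 and 42.7 CPM against 0, 16.3, 19.1, 19.4 and 16.0 CPM (1.13 ± 0.40). Neutrophil markers, of which 9 of 9 were lower in d16, summed to 120, 1019 and 390 CPM in d16 tumours and 626, 2593, 3086, 394 and 1360 CPM in p95 tumours. Their part in the cytokine values was not tested. In epithelial-like cells 15 of 16 colony stimulating factors and interleukins and 6 of 7 genes of neutrophil attraction were lower in d16. In macrophage-like cells 8 of 14 and 4 of 6 of these lists were higher. Monocyte and lymphocyte chemokines were lower for 13 of 20 in whole tumours. They were higher for 7 of 13 in epithelial-like and 8 of 14 in macrophage-like cells.

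Collagen and proliferation genes moved with single d16 tumours. In whole tumours 16 of 18 collagen genes were lower in d16 (median −0.53), with sums of 957, 5613 and 26260 CPM in d16 tumours and 3508, 8464, 27020, 29970 and 25860 CPM in p95 tumours. D16 tumour 3 stood with p95 tumours 3 to 5, and d16 tumours 1 and 2 with p95 tumours 1 and 2. The former are also the tables with date-like gene names, at medians of 1890 to 3810 UMIs per cell. The latter are those with intact names, at medians of 449 to 1196. The part of table layout and depth in the collagen values was not tested. Without d16 tumour 1 the count was 9 of 18 lower and the median −0.0066, while without d16 tumour 3 all 18 were lower (median −2.56), 12 of them at an unadjusted p under 0.05. Over all genes, 1069 of 11565 were lower at such a p without d16 tumour 3. Without d16 tumour 2 the median was −0.33. Genes of the G2 and M phases of the cell cycle were higher for 19 of 24 (median 0.60), summing to 1504, 492 and 391.7 CPM against 465, 303, 537, 364 and 608 CPM. D16 tumour 1 held the highest sum and the other d16 tumours lay inside the p95 range. Without it 12 of 24 were higher, with a median of 0.01. The median was 1.04 without d16 tumour 2, 0.95 without d16 tumour 3 (8 genes at an unadjusted p under 0.05) and 0.92 without p95 tumour 5. Over all genes, 2002 of 11565 had such a p without d16 tumour 3, 933 of them higher. For the cell cycle kinase Cdk1 the log2 fold change of 1.47 ± 0.80 became 0.26 without d16 tumour 1.

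Macrophage-like cells numbered 28 to 242 per tumour. None of 3888 genes passed an adjusted p of 0.05 in edgeR, and 104 (2.67%) had an unadjusted p under 0.05, 45 (1.16%) higher and 59 (1.52%) lower in d16. DESeq2 called none, with 52 at an unadjusted p under 0.05, and edgeR gave 57 at that p without p95 tumour 5. For 93 genes (2.39%) the groups did not overlap, 47 (1.21%) higher and 46 (1.18%) lower, and 52% of all genes had a fold change below 0. Interferon response genes were higher in d16 for 10 of 10 tested (median 1.07, all genes −0.02), 3 of them at an unadjusted p under 0.05 (background for that direction 1.16%). Ifit1, an RNA-binding antiviral protein, stood at 51.0, 157 and 55.5 CPM in d16 tumours and 0, 38.3, 0, 0 and 0 CPM in p95 tumours. The groups did not overlap, and the values rest on 58 UMIs in all d16 and 6 in all p95 tumours (log2 fold change 3.64 ± 0.89, edgeR adjusted p = 0.51). Cxcl10, a chemokine for activated T cells, stood at 1428, 633 and 214 CPM against 674, 95.8, 128, 18.1 and 32.1 CPM (2.72 ± 0.79). Rsad2, the antiviral enzyme viperin, stood at 459, 881 and 139 CPM against 193, 223, 171, 7.22 and 9.64 CPM (2.41 ± 0.78). In both, p95 tumours 4 and 5 were lowest. For Cxcl10 p95 tumour 1 alone overlapped with d16, and for Rsad2 p95 tumours 1 to 3 did. Without d16 tumour 1 all 10 were still higher (median 1.24), and without d16 tumour 2 only 6 of 9 were (median 0.55). Cxcl10 passed an adjusted p of 0.05 in 4 of the 17 alternative settings in which it was tested, Ifit1 in 3 of 13 and Rsad2 in 2 of 17.

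Of other genes higher in d16 macrophage-like cells, Ccl22, a chemokine for regulatory T cells, stood at 0, 114 and 171 CPM in d16 tumours and 48.2, 38.3, 14.3, 7.22 and 51.4 CPM in p95 tumours (2.08 ± 0.54). D16 tumours 2 and 3 lay above all p95 tumours, and d16 tumour 1, with 33 such cells, had none. Il10ra, the interleukin 10 receptor chain, stood at 306, 319 and 206 CPM against 96.4, 153, 128, 141 and 54.7 CPM, without overlap (1.22 ± 0.38). Complement genes summed to 13110, 15560 and 14210 CPM in d16 tumours and 13060, 12740, 10060, 11360 and 8616 CPM in p95 tumours. These sums did not overlap, although the nearest tumours differed by little, and 7 of 10 genes were higher.

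Of genes lower in d16 macrophage-like cells, S100a4 stood at 0, 97.3 and 81.3 CPM in d16 tumours and 241, 274, 542, 210 and 617 CPM in p95 tumours, without overlap (−2.27 ± 0.48, edgeR adjusted p = 0.38). Arg1, the arginine-splitting enzyme of suppressive and repair macrophages, stood at 0, 5.41 and 33.7 CPM against 0, 89.4, 57.1, 376 and 469 CPM (−3.43 ± 0.79), with p95 tumours 4 and 5 highest and p95 tumour 1 at 0. Timp1, an inhibitor of matrix proteases, stood at 102, 16.2 and 13.9 CPM against 48.2, 121, 400, 123 and 119 CPM (−3.13 ± 0.68), and d16 tumour 1 alone overlapped. Fn1, the matrix protein fibronectin, stood at 306, 141 and 912 CPM against 193, 715, 1556, 2543 and 1816 CPM (−1.54 ± 0.61), with p95 tumours 3 to 5 above all d16 tumours. Arg1 passed an adjusted p of 0.05 in 3 of the 15 alternative settings in which it was tested, and of 17 each Timp1 in 3, S100a4 in 2 and Fn1 in 1. Of 9 tested matrix proteases and inhibitors, the list that holds Timp1, 7 were lower in d16 macrophage-like cells (median −0.17), 1 of them at an unadjusted p under 0.05 (background 1.52%).

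Genes of other cell types were present in the same macrophage sums. Cdh1, the adhesion protein of epithelium, stood at 0, 16.2 and 13.9 CPM in d16 tumours and 193, 89.4, 99.9, 61.4 and 38.6 CPM in p95 tumours (−2.39 ± 0.63, no overlap). Col3a1, a fibroblast collagen, stood at 0, 0 and 13.9 CPM against 96.4, 19.1, 14.3, 415 and 80.4 CPM (−3.98 ± 1.05, no overlap). For Col3a1, d16 tumour 3 and p95 tumour 3 were nearly equal. The level of 0 in the shallow d16 tumour 1 sets only a loose limit for either gene. Luminal markers were lower in d16 for 8 of 8 tested (median −0.76), although their sums overlapped, at 2244, 1676 and 557 CPM against 1542, 5317, 385, 1719 and 312 CPM. That direction rested on single tumours: without p95 tumour 2 there were 5 higher and 2 lower (median 0.34), and without d16 tumour 3 there were 4 and 4 (median −0.16), while without d16 tumour 2 the median was −1.44. T or NK markers were higher in d16 for 2 of 2 tested (median 0.75). Fibroblast markers were lower for 3 of 3, with sums of 306, 168 and 339 CPM against 241, 319, 457, 1893 and 405 CPM. Whether RNA or cells of these types account for the values of S100a4, Timp1 and Fn1 was not tested.

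**Figure D4:**
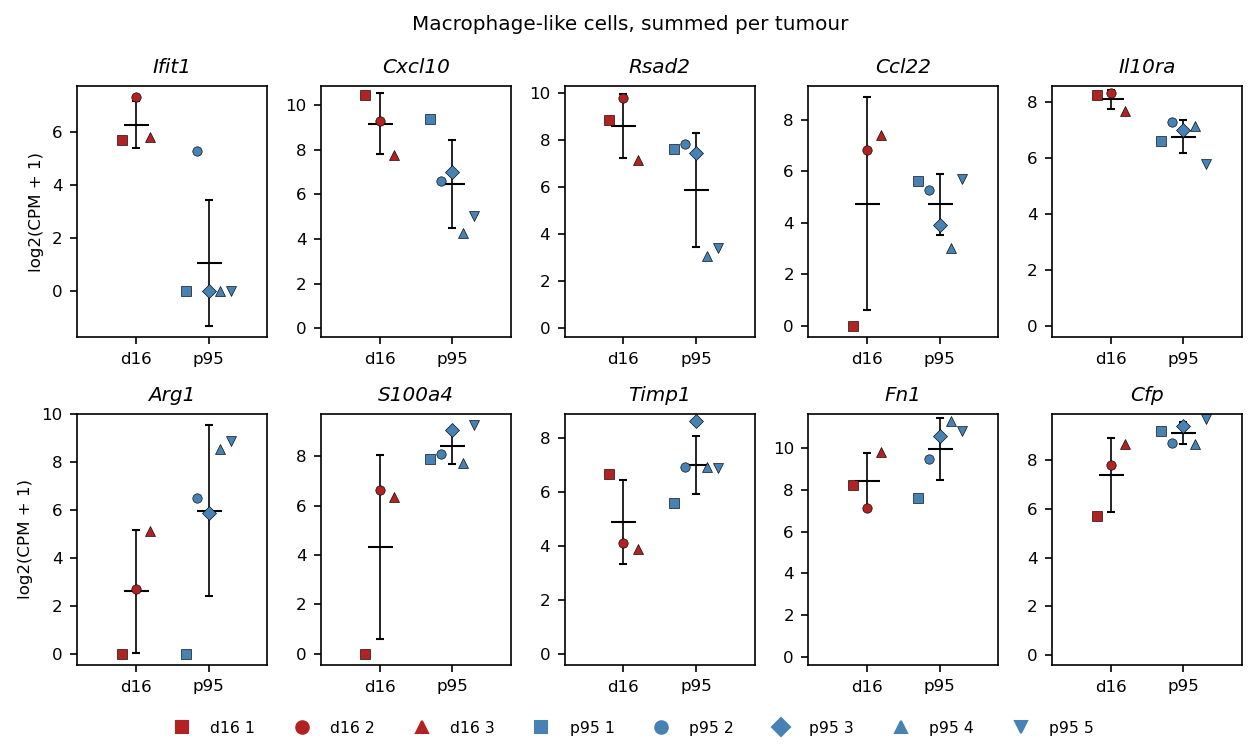
Levels of 10 genes in macrophage-like cells summed per tumour, as log2(CPM + 1) on the vertical axis, with 1 symbol per tumour and group mean and SD as black bars. Ifit1, Il10ra, S100a4 and Cfp separate the 3 d16 from the 5 p95 tumours, and Arg1 is highest in p95 tumours 4 (376 CPM) and 5 (469 CPM).

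Fibroblast-like and T or NK-like cells were too few for a test, since fewer than 3 d16 tumours held at least 20 of either. Among fibroblast-like cells, Col3a1 stood at 16940 CPM in d16 tumour 3 and at 25920, 22560 and 24520 CPM in p95 tumours 3 to 5. Dcn, the matrix proteoglycan decorin, stood at 9215 CPM in d16 tumour 3 and 8741, 11710 and 9749 CPM in these p95 tumours, which enclose it. Pi16, a marker of a universal fibroblast state, was higher in p95 tumour 3 (2692 CPM) than in p95 tumours 4 and 5 (808 and 541 CPM) and d16 tumour 3 (542 CPM). Among T or NK-like cells, the T cell receptor component Cd3d stood at 391.5 and 723 CPM in d16 tumours 2 and 3 and 782, 604 and 863 CPM in p95 tumours 2, 3 and 5. Cd8a, the co-receptor of cytotoxic T cells, stood at 142 and 144 CPM against 616, 80.6 and 0 CPM, so the p95 tumours lay on both sides of the d16 tumours.

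The pairs with a shared title number allow a comparison among metaplastic tumours of the same age, d16 tumour 2 with p95 tumour 2 at 17 weeks and d16 tumour 3 with p95 tumour 4 at 16 weeks. Each pair is 1 tumour against 1, so its own counts carry no test. In edgeR, both pairs fitted together with the number as a block gave no gene at an adjusted p of 0.05 in whole tumours (0, with 339 at an unadjusted p under 0.05) and 41 in macrophage-like cells. Median UMIs per cell were alike in the first pair (1196 and 1111) and lower in the d16 tumour of the second (2842 and 3810). Interferon response genes were higher in the d16 tumour for 23 of 29 in the first pair and 28 of 29 in the second. Genes of epithelial-mesenchymal transition were lower for 23 of 24 and 16 of 24, and matrix proteases and inhibitors for 18 of 19 and 11 of 19. Immediate early and stress genes, the first to respond to growth signals and dissociation, were lower for 17 of 20 and 18 of 20. In whole tumours these lists leaned the same way in both pairs, though the proteases only weakly in the second (8 of 19 higher, against 50.8% of all genes). In epithelial-like cells the proteases were lower for 16 of 17 in the first pair and higher for 10 of 17 in the second. Genes of epithelial-mesenchymal transition were lower there for 18 and 11 of 19. Interferon response genes were higher there for 14 of 24 (58.3%) in the first pair, near the 50.9% of all genes. In the second pair they were higher for 24 of 24.

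Other lists leaned in opposite ways. MHC class II genes, which present antigen to helper T cells, were lower in the d16 tumour for 11 of 11 in the first pair and higher for 11 of 11 in the second. MHC class I and immunoproteasome genes were lower for 11 of 17 in the first and higher for 17 of 17 in the second. T or NK markers were lower for 9 of 9 in the first and higher for 9 of 9 in the second. T or NK-like cells, a class named from these same markers, made up 5.33% (d16) and 16.7% (p95) in the first pair. In the second they made up 12.3% (d16) and 1.93% (p95). The part of these cells in the marker levels was not tested. Squamous genes were lower for 15 of 16 in the first and higher for 12 of 16 in the second, and basal genes lower for 11 of 19 and higher for 17 of 19. Milk and alveolar genes were higher for 11 of 17 in the first pair and lower for 15 of 17 in the second. Among all tested genes 49.9 and 50.8% were higher in the d16 tumour.

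**Figure D5:**
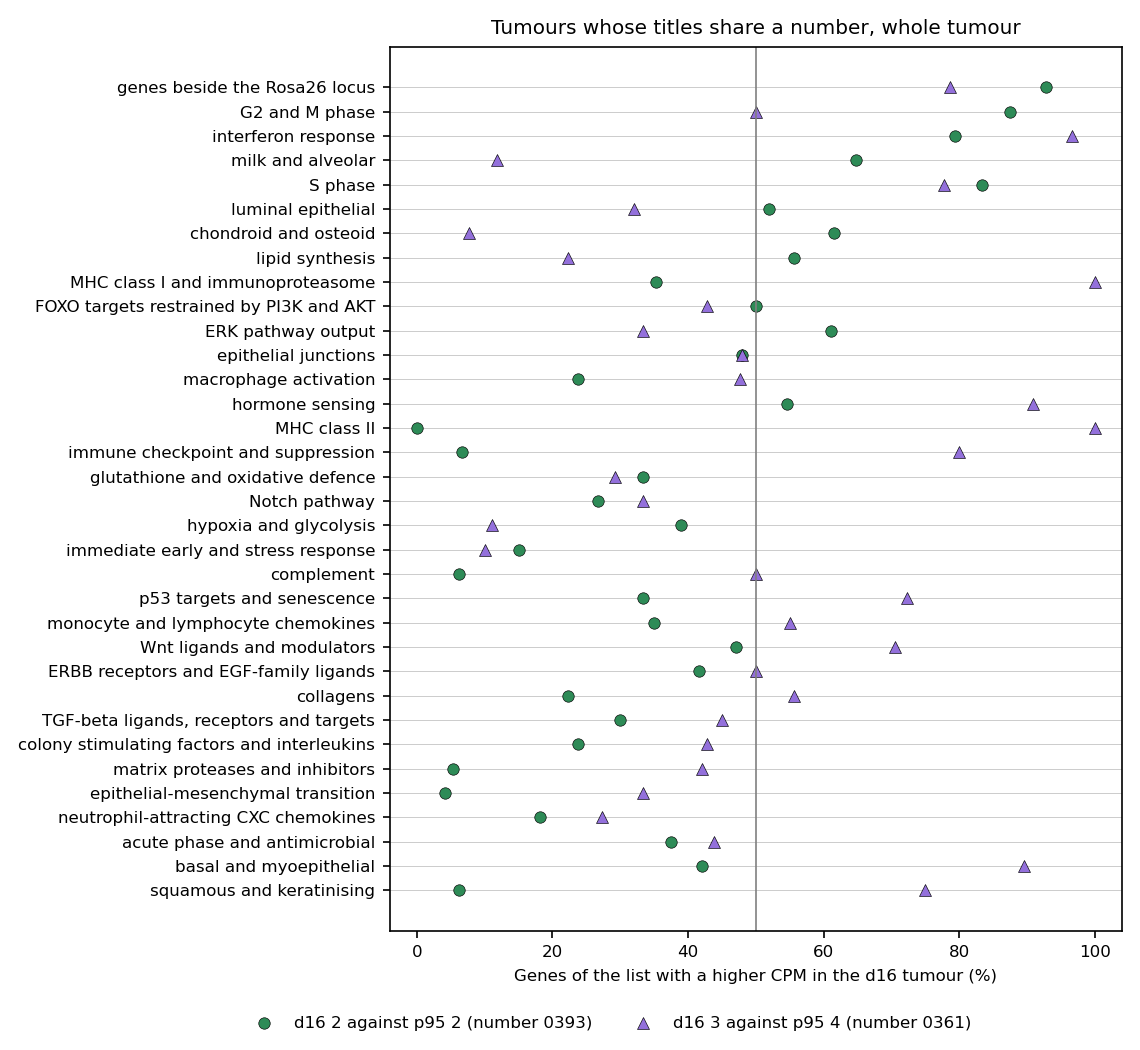
Share of the tested genes of each list with a higher whole-tumour CPM in the d16 tumour (horizontal axis, %), for d16 tumour 2 against p95 tumour 2 (green circles) and d16 tumour 3 against p95 tumour 4 (purple triangles). Interferon response and Rosa26 neighbour genes lie above 50% in both pairs, and MHC class II genes lie at 0 and 100%.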

How the data were processed

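The authors deposited raw UMI counts for every gene and cell, with 1 table of 24421 genes per tumour. Per the labels, a table joins several libraries of the tumour. Per the submitters' processing notes, Seurat 3.0.2 and the build GRCm38 were used; how reads were aligned, assigned to genes and split into cells is not given in the sources used here. For this work 1949 gene names were restored, and 23384 matched GENCODE M21. Apart from these repairs, 27 date-like names were matched by row to the tables with intact names. No mitochondrial gene is listed (0). Tables of different tumours differed beyond sampling noise (chi-square per degree of freedom at least 4.2) and shared at most 2 barcodes.

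Cells of all 12 tumours with 200 or more detected genes were clustered in scanpy 1.11.5 under Python 3.11.15, on 2000 variable genes, 30 components and 15 neighbours, without integration. This gave 21 Leiden clusters at resolution 1. A cluster was named from its markers, at least 3 of which had to be seen in 10% of its cells, and 617 nulliparous cells were left unnamed. Names rebuilt in this way may differ from the study's own. The 197 predicted doublets among nulliparous cells (4% of each tumour) were kept, and free RNA was not removed.

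For each tumour, UMIs were added up over all kept cells and over the epithelial-like and the macrophage-like ones. The sums entered edgeR 4.0.16 (R 4.3.3): genes were filtered by filterByExpr, scaled by TMM and compared by the quasi-likelihood test, and p values were adjusted by Benjamini-Hochberg over all tested genes. CPM are UMIs per 1000000. Shares of cells were compared by exact permutation (scipy 1.17.1). Totals of 104893 to 4394398 UMIs per tumour set the precision. The comparison, the 34 gene lists and the 15 marker sets were chosen with earlier results of these data known, so lists are described by counts and medians and carry no test.

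Named genes follow a rule. As fewer than 5 genes passed the adjusted threshold of 0.05 in each fit, it takes the 10 with the smallest p in either direction, at a mean log2 CPM of 4 or more. For whole tumours and epithelium it takes the 5 in either direction with the largest fold and no overlap. From every described list it takes the 4 with the smallest p, and it adds 28 panel genes. A part of these is named. The alternatives were DESeq2 1.42.0, voom in limma 3.58.1 (plain, or blocked on title number), RLE scaling, an unfiltered table, a minimum of 500 genes per cell, doublet removal, Leiden resolution 2, table layout as covariate, the pairs with a shared number, and the omission of single tumours or of the 2 shallowest. Scripts were tested on simulated data.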

Additional observations from a re-analysis of the deposited data

Results flagged for a closer look

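Among the values of the 5 p95 tumours, 24 of 142 had 1 tumour far from the other 4, by the ratio of its gap to the whole range (Dixon's test at 95%). Chance flags about 1 in 20 such groups, and the values share tumours. The 3 d16 tumours are too few for this test. P95 tumour 1, the shallowest, held 10 of them, p95 tumour 3 held 7, p95 tumour 4 held 3, and p95 tumours 2 and 5 held 2 each.

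In p95 tumour 1 the whole-tumour levels of Tada3 (67.6 CPM against a p95 median of 22.5) and Cdk1 (93.0 against 25.4) were high, and Il34 was at 0 CPM against a median of 16.3. In its epithelial-like cells Brpf1 (109 against 61.9 CPM), Ldhb (232 against 91.9), Dbp (41.0 against 7.12), Gsta3 (27.3 against 3.05) and Tada3 (109 against 31.5) were high. In its macrophage-like cells, of which there were 28, Chil1 (193 against 3.61 CPM) and Cxcl10 (674 against 95.8) were high. For Brpf1, Ldhb, Dbp and Gsta3 this put p95 tumour 1 nearest to the d16 tumours.

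P95 tumour 3 stood apart for genes of stratified epithelium: Trim29 in whole tumour (74.2 against a p95 median of 19.4 CPM), and in epithelial-like cells Krt5 (6707 against 346), Krt6b (779 against 12.0), Krt16 (2611 against 416) and Sbsn (452 against 73.2). Its macrophage-like cells were high in Timp1 (399.6 CPM against 121) and Lyve1 (399.6 against 65). P95 tumour 4 held 18.0% fibroblast-like cells against a median of 5.06% and 6.0% pericyte-like cells against 0.565%, and its macrophage-like cells held 415 CPM of Col3a1 against 80.4. P95 tumour 2 was high in Krt18 in epithelial-like cells (8008 against 3688 CPM) and in Ifit1 in macrophage-like cells (38.3 against 0). P95 tumour 5 was low in whole-tumour St6galnac2 (4.44 against 8.45 CPM) and high in epithelial Nfatc1 (153 against 54.0).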

How the results depend on the processing

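Of values of named genes under the alternatives, 2456 of 2501 kept their direction and their side of the adjusted threshold, 34 moved past it and 11 changed sign. Of list medians 1855 of 1886 moved by less than 1 SD of the tumours within a group, a spread that is wide here, and of share differences 80 of 88 kept their sign. Counts of genes past an adjusted p of 0.05, all 0 as reported, were in whole tumours 3 with DESeq2 and 0 to 2 when 1 tumour was left out (2 without d16 tumour 3, Gjb1 and Gpx2). In epithelial-like cells they were 2 with DESeq2, 1 with limma voom and the title number as a replicate block, and 1 without the low-count filter (Mtmr14 in each). In macrophage-like cells they were 41 with only the 2 pairs and their number as a replicate block, 2 with limma voom and a replicate block (Cxcl10 and Timp1), 2 with the 3 strata of layout and shared number (Arg1 and Cxcl10; an alternative chosen after seeing the data), 21 without the low-count filter, and 0 to 1 when 1 tumour was left out (Chil1 without d16 tumour 3, Ifit1 without p95 tumour 2). The cause of these shifts was not tested.

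The block on the title number rests on 2 pairs, and the labels do not say that the number marks an animal. Deviations from the group means correlated at 0.331 and 0.244 in the pairs over whole tumours and at 0.281 and 0.0195 over epithelial-like cells, while tumours with different numbers reached 0.504 (d16 tumour 3 and p95 tumour 5). The samples were therefore treated as sharing only a number.

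Signs changed for some log2 fold changes. In epithelial-like cells Erbb2 became 0.020 with limma voom without a block, 0.012 with the replicate block and 0.14 without the 2 shallowest tumours, and ranged from −0.59 to 0.034 when 1 tumour was left out. Egfr ranged in this way from −0.39 to 0.033 (without p95 tumour 4), Areg from −2.62 (without d16 tumour 3) to 0.10 (without d16 tumour 1), and Tada3 from −0.0037 (without d16 tumour 3) to 3.06. In the 2 pairs with the replicate block Ccnd1 became 0.25 and Epcam −0.37. In macrophage-like cells Mtmr14 ranged from −0.23 to 0.61 and Brpf1 from −0.10 to 0.80, the lower ends without d16 tumour 2. Differences in the share of cells (d16 minus p95, percentage points) also changed sign when 1 tumour was left out: from −4.91 to 2.12 for macrophage-like, from −4.33 to 0.88 for T or NK-like and from −1.29 to 0.13 for pericyte-like cells. Leiden resolution 2 gave 0.674 for macrophage-like cells.

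Depth limits d16 tumour 1 and p95 tumour 1 most: in macrophage-like cells they held 19607 and 20535 UMIs, so a level of 51.0 CPM in the former is 1 UMI. In whole tumours, low levels in these tumours also rest on very few UMIs, as for Sema3c, Figf, Ogg1 and Ifit3. The epithelial-like cells of p95 tumour 1 held 64781 UMIs. Its levels of Gjb1, Gstm2, Gsta3, Tspan12, Trim29, Dbp and Nfatc1 there rest on very few UMIs too.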
